A study of Homo sapiens with 18 samples.

Results

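The tRNA families Tyr-GTA, Leu-CAA, Arg-TCT and Ile-TAT were examined in small RNA libraries of HEK293T cells, a human embryonic kidney line of epithelial type. These are the families in which introns are usual among human tRNA genes. Members were the rows of the deposited count table whose name starts with tRNA-Tyr-GTA, tRNA-Leu-CAA, tRNA-Arg-TCT or tRNA-Ile-TAT and whose end minus start is at most 500 nt. This gave 32 of 175935 rows, with 14 Tyr-GTA, 7 Leu-CAA, 6 Arg-TCT and 5 Ile-TAT rows. Cells had been treated for 48 h with a scramble siRNA (control) or an siRNA against SSB (siSSB), in either case with RNAiMAX as transfection reagent. Small RNA was taken from whole cells (total), nuclei (nuc) or cytoplasm (cyto), with 3 replicates in each of the 6 groups, and every library title carries the mark Plus_PNK.

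Precursor tRNAs are made by RNA polymerase III (Pol III), which stops in a run of T and leaves a short U-rich 3′ trailer. La, the protein that SSB encodes, binds this U-rich end and is known as a chaperone of new Pol III transcripts. The intron of a tRNA gene lies next to the anticodon and is removed by a splicing endonuclease and a ligase rather than by the spliceosome. Tyr-GTA, Leu-CAA, Arg-TCT and Ile-TAT tRNAs carry tyrosine, leucine, arginine and isoleucine to the ribosome.

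Of the 32 rows, 30 coincided with a tRNA gene of RefSeq (GRCh38.p14), and each of these 30 rows reached exactly 25 nt beyond the gene on both sides. They covered all 30 RefSeq genes of the 4 families. Because the table gives the same name to several copies, copies are called by their RefSeq symbol. The other rows were tRNA-Tyr-GTA-10-1 and tRNA-Tyr-GTA-9-1. An intron was found in 28 members and none in 4, namely TRR-TCT4-1, TRL-CAA6-1, TRL-CAA5-1 and tRNA-Tyr-GTA-10-1. Introns measured 12 to 18 nt in Arg-TCT, 15 to 21 nt in Tyr-GTA, 19 to 20 nt in Ile-TAT and 22 to 24 nt in Leu-CAA, and every copy had its own intron sequence within its family. After removal of the intron, several copies were identical: 5 Tyr-GTA copies (TRY-GTA5-1 to TRY-GTA5-5), 3 Ile-TAT copies (TRI-TAT2-1 to TRI-TAT2-3), 2 Arg-TCT copies (TRR-TCT3-1 and TRR-TCT3-2) and 2 Leu-CAA copies (TRL-CAA1-1 and TRL-CAA1-2).

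The genes that carry the results are shown 5′ to 3′ on the gene's own strand, as read from the hg38 reference, in lower case with the intron in capitals. Coordinates are those of the hg38 rows, which include the 25 nt flanks. First comes the copy with the highest mean count of each family, TRY-GTA2-1 (chr2:27050757-27050895, plus strand), TRL-CAA4-1 (chr1:248873830-248873985, plus strand), TRR-TCT1-1 (chr1:93847548-93847682, plus strand) and TRI-TAT2-3 (chr6:27631396-27631539, plus strand).
TRY-GTA2-1: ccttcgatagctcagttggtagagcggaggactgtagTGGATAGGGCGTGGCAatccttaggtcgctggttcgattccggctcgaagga
TRL-CAA4-1: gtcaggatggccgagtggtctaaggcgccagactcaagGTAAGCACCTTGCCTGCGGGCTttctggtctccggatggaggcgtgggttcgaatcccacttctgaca
TRR-TCT1-1: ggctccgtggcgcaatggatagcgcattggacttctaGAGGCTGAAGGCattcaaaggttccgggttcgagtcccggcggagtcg
TRI-TAT2-3: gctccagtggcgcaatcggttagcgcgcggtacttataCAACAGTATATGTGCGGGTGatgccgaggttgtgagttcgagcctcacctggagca

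The next genes are Tyr-GTA copies whose response to siSSB is compared. TRY-GTA3-1 (chr6:26577079-26577217, plus strand) is set beside its neighbour TRY-GTA8-1 (chr6:26575545-26575684, plus strand), whose row ends 1394 nt before it, and beside TRY-GTA6-1 (chr6:26594849-26594987, plus strand) and TRY-GTA1-1 (chr6:26568833-26568973, plus strand). TRY-GTA4-1 (chr14:20657439-20657582, minus strand) and TRY-GTA7-1 (chr14:20659933-20660076, minus strand) lie close together on another chromosome. tRNA-Tyr-GTA-10-1 (chr7:149558017-149558139, plus strand) shows a member without an intron.
TRY-GTA3-1: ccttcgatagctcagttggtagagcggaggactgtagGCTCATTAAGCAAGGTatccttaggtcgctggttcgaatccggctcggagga
TRY-GTA8-1: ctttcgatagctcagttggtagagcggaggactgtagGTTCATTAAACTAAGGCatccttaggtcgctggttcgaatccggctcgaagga
TRY-GTA6-1: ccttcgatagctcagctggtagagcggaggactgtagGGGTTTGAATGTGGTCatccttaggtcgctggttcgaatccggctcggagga
TRY-GTA1-1: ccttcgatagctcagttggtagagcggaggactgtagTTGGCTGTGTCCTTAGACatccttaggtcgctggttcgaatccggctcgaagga
TRY-GTA4-1: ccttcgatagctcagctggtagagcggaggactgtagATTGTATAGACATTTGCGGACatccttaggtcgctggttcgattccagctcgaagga
TRY-GTA7-1: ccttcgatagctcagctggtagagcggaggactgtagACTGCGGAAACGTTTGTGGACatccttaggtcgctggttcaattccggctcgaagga
tRNA-Tyr-GTA-10-1: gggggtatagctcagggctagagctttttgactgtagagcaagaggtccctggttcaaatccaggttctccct

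The 73 nt outside the intron of TRY-GTA3-1 differed at 1 position from those of TRY-GTA1-1 and of TRY-GTA6-1, and at 2 positions from those of TRY-GTA2-1 and of TRY-GTA8-1. Differences at 3 or 4 positions separated it from the other Tyr-GTA copies compared. A run of at least 4 T (TTTT, searched on the gene's strand in the 25 nt after the gene) was present in 30 of 32 members, or 93.8%, against 359 of 467 other nuclear-encoded tRNA rows, or 76.9%, and 78.0% of all 499 such rows. The first such run began after a median of 6 nt in intron-bearing members and 8 nt in the other tRNA rows. The 25 nt after TRY-GTA3-1 and after TRY-GTA1-1, with the run in capitals, illustrate a short and a long run.
TRY-GTA3-1, 25 nt after the gene: cggtagTTTTgacctaccaagctaa
TRY-GTA1-1, 25 nt after the gene: gttcacaaTTTTTTTTTTTTgcgta

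Column sums ranged from 21565995 to 158244813 counts, and the 32 members held 46835 to 142498 counts in cyto, 21735 to 46426 in total and 1911 to 3408 in nuc libraries. The fractions differed strongly in composition, with 32.01 to 55.6 snoRNA counts per 100 tRNA counts in cyto, 454 to 670 in total and 8306 to 9775 in nuc libraries. The SSB mRNA had no row of its own name, so its depletion was not measured here. A row over SSB exons, HSALNG0020274, had 12, 15 and 19 counts in control libraries of total RNA but 698, 1267 and 547 after siSSB, so it was higher in siSSB. A read from a spliced tRNA and a read from the exons of its precursor fall in the same row, and only the summed count of a row was available. In RNA pooled from many cells, fewer cells with an RNA and less of that RNA per cell cannot be told apart.

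Leu-CAA and Tyr-GTA made up most of the members' counts, and Ile-TAT was rare. Members together held 3.37% to 10.9% of the nuclear-encoded tRNA counts of a library. In control total libraries Leu-CAA held 2.85% to 4.09%, Tyr-GTA 2.94% to 2.99%, Arg-TCT 1.77% to 1.90% and Ile-TAT 0.0433% to 0.0485% of these counts. In control nuc libraries the share of Leu-CAA was 0.726% to 1.24% and that of Arg-TCT 0.472% to 0.899%, both below their ranges in cyto (3.67% to 5.60% and 1.03% to 1.66%). The Tyr-GTA share, 2.10% to 2.73% in control nuc and 2.62% to 3.49% in control cyto, overlapped between the fractions.

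**Figure D1:**
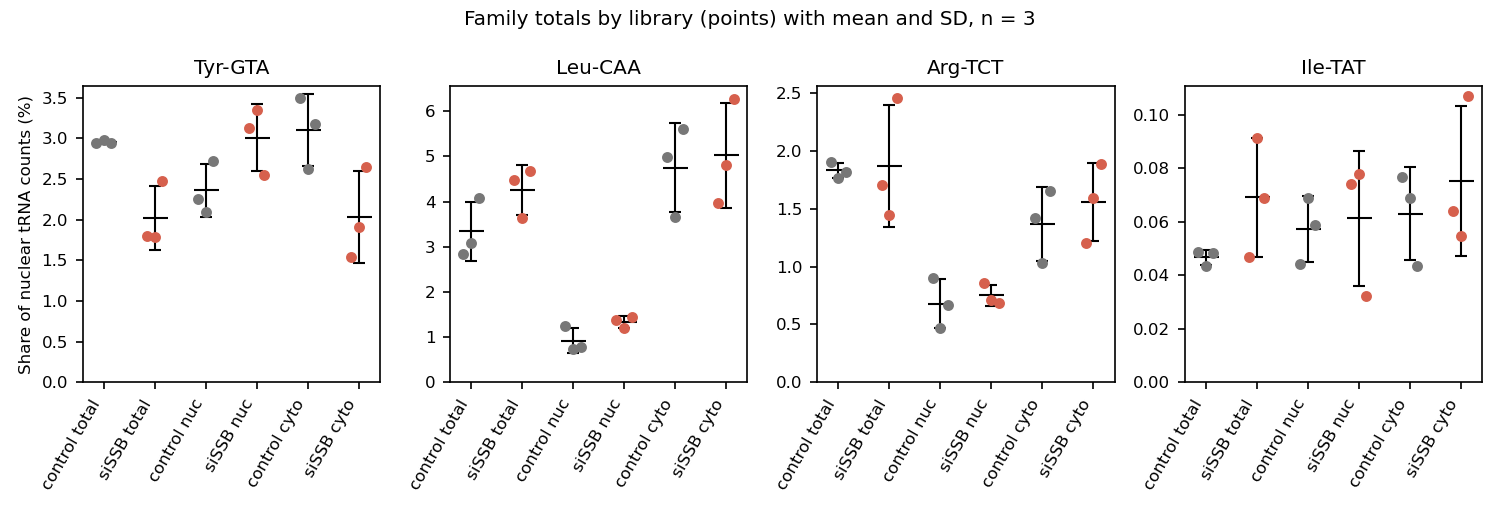
Share of nuclear-encoded tRNA counts (%, y axis) held by each family in each library (points, grey for control and red for siSSB), with the mean and SD of the 3 replicates in black. The Tyr-GTA share in total RNA lies at 2.94% to 2.99% in control and 1.79% to 2.47% in siSSB, and the Leu-CAA share is lowest in the nuc libraries.

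Within a family, copies differed widely in level, also where the spliced sequence was identical. Compared per length of the row, the highest of the 5 identical TRY-GTA5 copies exceeded the lowest by 9.94 to 76.8-fold within a library, with a median of 20.01-fold over the 18 libraries. The corresponding ranges were 2.11 to 35.1-fold for the 3 TRI-TAT2 copies, 2.64 to 18.04-fold for TRR-TCT3-1 and TRR-TCT3-2 and 1.52 to 5.40-fold for TRL-CAA1-1 and TRL-CAA1-2. TRL-CAA4-1 held 78.2% ± 2.08 of the length-scaled Leu-CAA counts in control total and 51.7% ± 4.30 in control nuc libraries (SD, n = 3). TRY-GTA5-5 held 7.78% ± 1.78 of the length-scaled Tyr-GTA counts in control cyto and 26.1% ± 2.89 in control nuc libraries, and the ranges of these groups did not overlap (6.47% to 9.80% and 23.8% to 29.4%).

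The first comparison asked how the families responded to siSSB in whole cells. In total RNA 5 Tyr-GTA copies fell, and no Leu-CAA, Arg-TCT or Ile-TAT member passed the test, though this depended on the scaling. Of 27 members tested, 5 were changed, all lower in siSSB and all Tyr-GTA (edgeR quasi-likelihood test, adjusted p under 0.05), where 1.34% of all 13883 rows tested were changed and 0.972% were lower. Among the other tRNA rows 38 of 409, or 9.29%, were changed, all lower. The median log2 fold change was −0.88 over the members, −0.84 over the other tRNA rows and −0.01 over all rows, so the members lay near the other tRNAs. These medians depended on the scaling. Under the 6 scalings tried they ran from −1.37 to −0.20, from −1.32 to −0.10 and from −0.54 to 0.74. By family, 5 of 13 tested Tyr-GTA members were changed, against 0 of 5 Leu-CAA, 0 of 6 Arg-TCT and 0 of 3 Ile-TAT members. At an unadjusted p under 0.05 these numbers were 12, 2, 4 and 0, and DESeq2 called 9, 0, 1 and 0. Of all 27 members 18 had an unadjusted p under 0.05 and DESeq2 called 10. An unadjusted p under 0.05 was about as frequent among the 409 other tRNA rows, with 267, and DESeq2 called 94 of them. The number at this threshold over all rows was not counted in any comparison. Over all 13883 rows DESeq2 called 566. Scaled to miRNAs, 19 members were called, all lower, more than the 13 Tyr-GTA members tested, so the calls were not confined to Tyr-GTA. In that scaling 316 of 409 other tRNA rows and 2141 of all rows were called.

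TRY-GTA4-1 changed most. Its counts were 1884, 1592 and 1780 in the control libraries but only 369, 337 and 601 after siSSB, and the groups did not overlap. This was 28.0 ± 4.19 against 6.48 ± 2.69 CPM (counts per 1e6 on the TMM-scaled library size, SD, n = 3), so the log2 fold change was −2.11 ± 0.33 (SE, adjusted p = 0.0134). For TRY-GTA7-1, which lies close to it, 524, 467 and 547 counts stood against 159, 142 and 162 after siSSB, with −1.85 ± 0.25 (adjusted p = 0.0123). TRY-GTA8-1 held 210, 383 and 247 against 74, 91 and 102 counts, with −1.78 ± 0.28 (adjusted p = 0.0139). All siSSB libraries lay below all control libraries for each of these copies. The call of TRY-GTA4-1 was kept in all 16 alternatives, while that of TRY-GTA7-1 was lost by snoRNAs (adjusted p = 0.169) and that of TRY-GTA8-1 by library size (0.0686) and by snoRNAs (0.222).

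The other called copies share the TRY-GTA5 sequence. TRY-GTA5-1 fell by 1.70 on the log2 scale (SE 0.35, adjusted p = 0.0368) and TRY-GTA5-4 by 1.36 (SE 0.29, adjusted p = 0.0441). Their calls were lost without control total replicate 2 (adjusted p = 0.0763 and 0.0952), siSSB total replicate 1 (0.0988 and 0.111) or siSSB total replicate 2 (0.0754 and 0.114), and that of TRY-GTA5-4 also without control total replicate 1 (0.0613). Both were also lost by snoRNAs (0.136 and 0.321) and with identical rows taken once (0.0502 and 0.0590), and TRY-GTA5-4 by library size (0.179) and relative to the other tRNA rows (0.116). All 13 tested Tyr-GTA members had a negative log2 fold change, from −2.11 to −0.23. So had 6 of 6 Arg-TCT, 4 of 5 Leu-CAA and 2 of 3 Ile-TAT members. The counts of TRY-GTA3-1 were 340, 241 and 274 in control but 103, 83 and 214 in siSSB libraries, which do not overlap, and its log2 fold change of −1.20 ± 0.37 did not pass (adjusted p = 0.129). TRY-GTA3-1 did pass in 4 of 16 alternatives, lower in siSSB each time (adjusted p down to 0.00418).

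The copies with the most counts in their family did not pass the test. The log2 fold change was −0.76 ± 0.30 for TRY-GTA2-1 (adjusted p = 0.234) and −0.51 ± 0.37 for TRR-TCT1-1 (adjusted p = 0.565). It was −0.29 ± 0.35 for TRL-CAA4-1 (adjusted p = 0.748) and 0.03 ± 0.25 for TRI-TAT2-3 (adjusted p = 0.976), and none passed. TRY-GTA2-1 passed in 1 of 16 alternatives (adjusted p = 0.0389). Summed over the family, Tyr-GTA amounted to 243 ± 46.5 CPM in control and 102 ± 40.4 CPM in siSSB total, a log2 ratio of means of −1.25. The ratios were −0.65 for Arg-TCT, −0.33 for Leu-CAA and −0.22 for Ile-TAT, and the groups overlapped for these 3 families. Ordered from the lowest ratio among the 47 anticodon families with a mean of at least 100 counts, Tyr-GTA stood at place 11, Arg-TCT at 35, Leu-CAA at 45 and Ile-TAT at 47. The Tyr-GTA ratio was negative under all 6 scalings tried (−1.71 to −0.55), whereas the ratios of Leu-CAA (−0.80 to 0.35), Ile-TAT (−0.70 to 0.56) and Arg-TCT (−1.10 to 0.04) changed sign between scalings. The upper end of each of these ranges is the value relative to the total of the other tRNA rows.

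**Figure D2:**
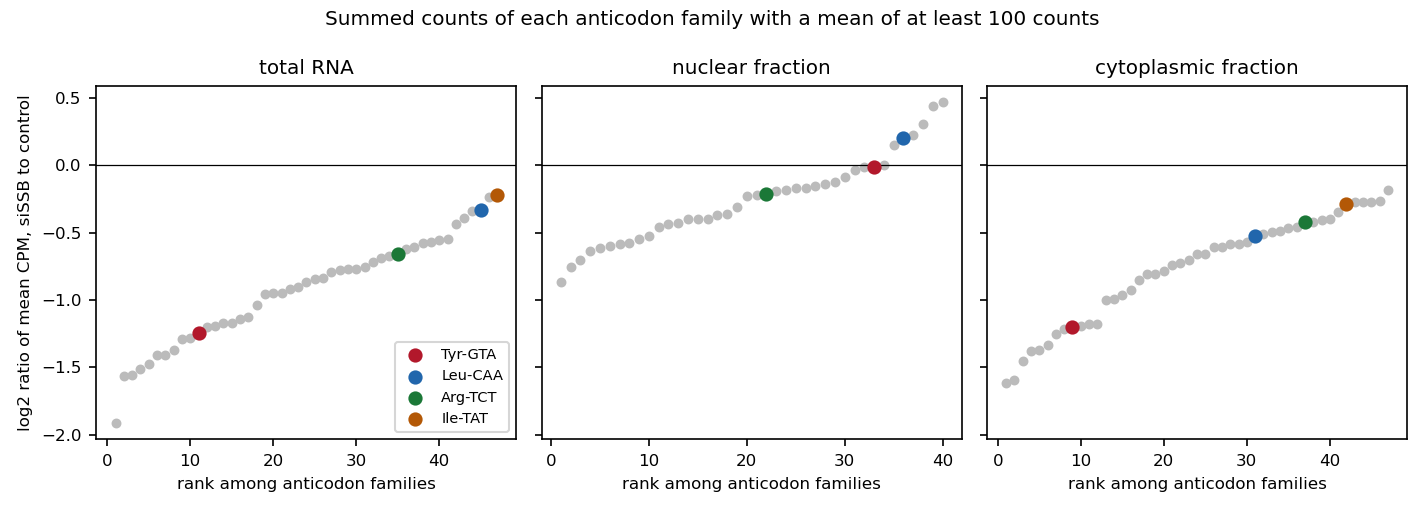
Log2 ratio of mean CPM, siSSB to control (y axis), of each anticodon family with a mean of at least 100 counts, ordered from the lowest (x axis, rank), with the 4 families coloured and all others grey. In total RNA Tyr-GTA stands at place 11 of 47 and Leu-CAA and Ile-TAT at places 45 and 47, and Ile-TAT is missing in the nuclear panel because its mean count was under 100.

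In the cytoplasmic fraction, too, the called members were Tyr-GTA copies. Of 29 members tested, 3 were changed, all Tyr-GTA and all lower in siSSB, where 0.291% of all 18921 rows tested were changed, 0.27% lower and 0.0211% higher. Of the other tRNA rows 16 of 413, or 3.87%, were changed, all lower. The median log2 fold change was −0.87 over the members and −0.60 over the other tRNA rows. Between scalings these medians ran from −1.07 to −0.30 and from −0.74 to −0.0228. By family, 3 of 13 Tyr-GTA, 0 of 5 Leu-CAA, 0 of 6 Arg-TCT and 0 of 5 Ile-TAT members were called by edgeR, with 12, 3, 1 and 3 at an unadjusted p under 0.05 and 8, 1, 0 and 0 called by DESeq2. Among the 413 other tRNA rows, 168 had an unadjusted p under 0.05 and DESeq2 called 45, and it called 163 of all 18921 rows.

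TRY-GTA8-1 went from 771, 572 and 860 counts in control cyto to 150, 97 and 214 in siSSB cyto, which gave −2.33 ± 0.33 (adjusted p = 0.0331). TRY-GTA4-1 held 3515, 1891 and 5755 against 812, 793 and 1190 counts, with −1.99 ± 0.33 (adjusted p = 0.0495). TRY-GTA3-1 held 586, 316 and 1052 against 171, 159 and 170 counts, with −1.95 ± 0.31 (adjusted p = 0.0477). Groups did not overlap for these copies, but the adjusted p lay close to the threshold for TRY-GTA4-1 and TRY-GTA3-1, and every one of the 3 calls depended on single libraries. Without control cyto replicate 1 or 2, or without siSSB cyto replicate 1 or 2, 0 members were called, without control cyto replicate 3 it was 1 and without siSSB cyto replicate 3 it was 2. No member was called under scaling to library size, to snoRNAs or to the other tRNA rows, where the smallest adjusted p of these copies was 0.0798, while DESeq2 called 9.

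All 13 tested Tyr-GTA members again had negative log2 fold changes, from −2.33 to −0.41. So had 6 of 6 Arg-TCT, 5 of 5 Ile-TAT and 4 of 5 Leu-CAA members. The Tyr-GTA total was 1073 ± 237 CPM in control and 469 ± 157 CPM in siSSB cyto, a log2 ratio of −1.20 that stayed negative under all 6 scalings (−1.40 to −0.61). The ratios were −0.52 for Leu-CAA, −0.42 for Arg-TCT and −0.29 for Ile-TAT, each positive relative to the other tRNA rows (0.07, 0.18 and 0.26). TRY-GTA2-1, with −0.86 ± 0.36 (adjusted p = 0.658), TRL-CAA4-1, with −0.47 ± 0.33 (adjusted p = 0.838), TRR-TCT1-1, with −0.42 ± 0.32 (adjusted p = 0.868), and TRI-TAT2-3, with −0.09 ± 0.40 (adjusted p = 0.994), did not pass.

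In the nuclear fraction, 1 of 22 members tested was changed, and it was higher in siSSB. This was TRY-GTA3-1, in a comparison where 0.378% of all 6873 rows tested were changed and 0.0291% were higher. TRY-GTA3-1 held 64, 44 and 64 counts in control nuc and 167, 203 and 175 counts in siSSB nuc, so every siSSB library lay above every control library. Its level was 0.485 ± 0.119 CPM in control and 1.46 ± 0.140 CPM in siSSB nuc, with a log2 fold change of 1.59 ± 0.28 (adjusted p = 0.0124). The value was positive under all 6 scalings (1.49 to 1.98), but the call was lost in 9 of 16 alternatives. It was lost by library size (adjusted p = 0.0959), by snoRNAs (0.127) and relative to the other tRNA rows (0.128), where 0 of all rows tested were called, and in the fit of all 18 libraries (0.195). It was also lost without any single nuclear library other than control nuc replicate 3 (adjusted p up to 0.197). Of the other tRNA rows 1 of 294 was changed, and it was lower.

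No other Tyr-GTA copy passed the test in nuclei. By family, edgeR called 1 of 11 Tyr-GTA, 0 of 5 Leu-CAA, 0 of 4 Arg-TCT and 0 of 2 Ile-TAT members, with 5, 1, 0 and 1 at an unadjusted p under 0.05 and 1, 0, 0 and 0 called by DESeq2. Among the 294 other tRNA rows, 73 had an unadjusted p under 0.05 and DESeq2 called 7, and it called 37 of all 6873 rows. The median log2 fold change was −0.17 over the members, −0.37 over the other tRNA rows and 0.0804 over all rows. Between scalings these medians ran from −0.28 to 0.21, from −0.47 to 0.00395 and from −0.0333 to 0.48. TRY-GTA4-1 held 106, 130 and 114 counts in control nuc and 88, 68 and 55 in siSSB nuc (log2 fold change −0.82 ± 0.29, adjusted p = 0.249). The neighbour TRY-GTA8-1 held 22, 30 and 25 against 19, 15 and 13 counts (−0.79 ± 0.33, adjusted p = 0.303). The copies nearest in sequence, TRY-GTA6-1 with 63, 24 and 47 against 62, 38 and 53 counts and TRY-GTA1-1 with 295, 169 and 180 against 325, 208 and 209 counts, had log2 fold changes of 0.16 ± 0.34 and 0.17 ± 0.29. Their groups overlapped, while those of TRY-GTA4-1 and TRY-GTA8-1 did not.

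The Tyr-GTA total was 11.7 ± 1.19 CPM in control and 11.7 ± 1.70 CPM in siSSB nuc, a log2 ratio of −0.01 that took either sign between scalings (−0.11 to 0.37). Without TRY-GTA3-1 the ratio was −0.14. The ratios were −0.21 for Arg-TCT and −0.29 for Ile-TAT, and both took either sign between scalings. That of Leu-CAA was 0.20, from 0.0950 to 0.57 between scalings but from −0.0356 to 0.53 without 1 library, negative without control nuc replicate 3 or siSSB nuc replicate 3. TRY-GTA2-1 (0.24 ± 0.28, adjusted p = 0.683), TRL-CAA4-1 (0.07 ± 0.34, adjusted p = 0.944), TRR-TCT1-1 (−0.37 ± 0.30, adjusted p = 0.549) and TRI-TAT2-3 (−1.08 ± 0.42, adjusted p = 0.256) did not pass. Depth was low here, since 10 members did not reach the filter on low counts and TRI-TAT2-3 had a mean of 11.7 counts.

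**Figure D3:**
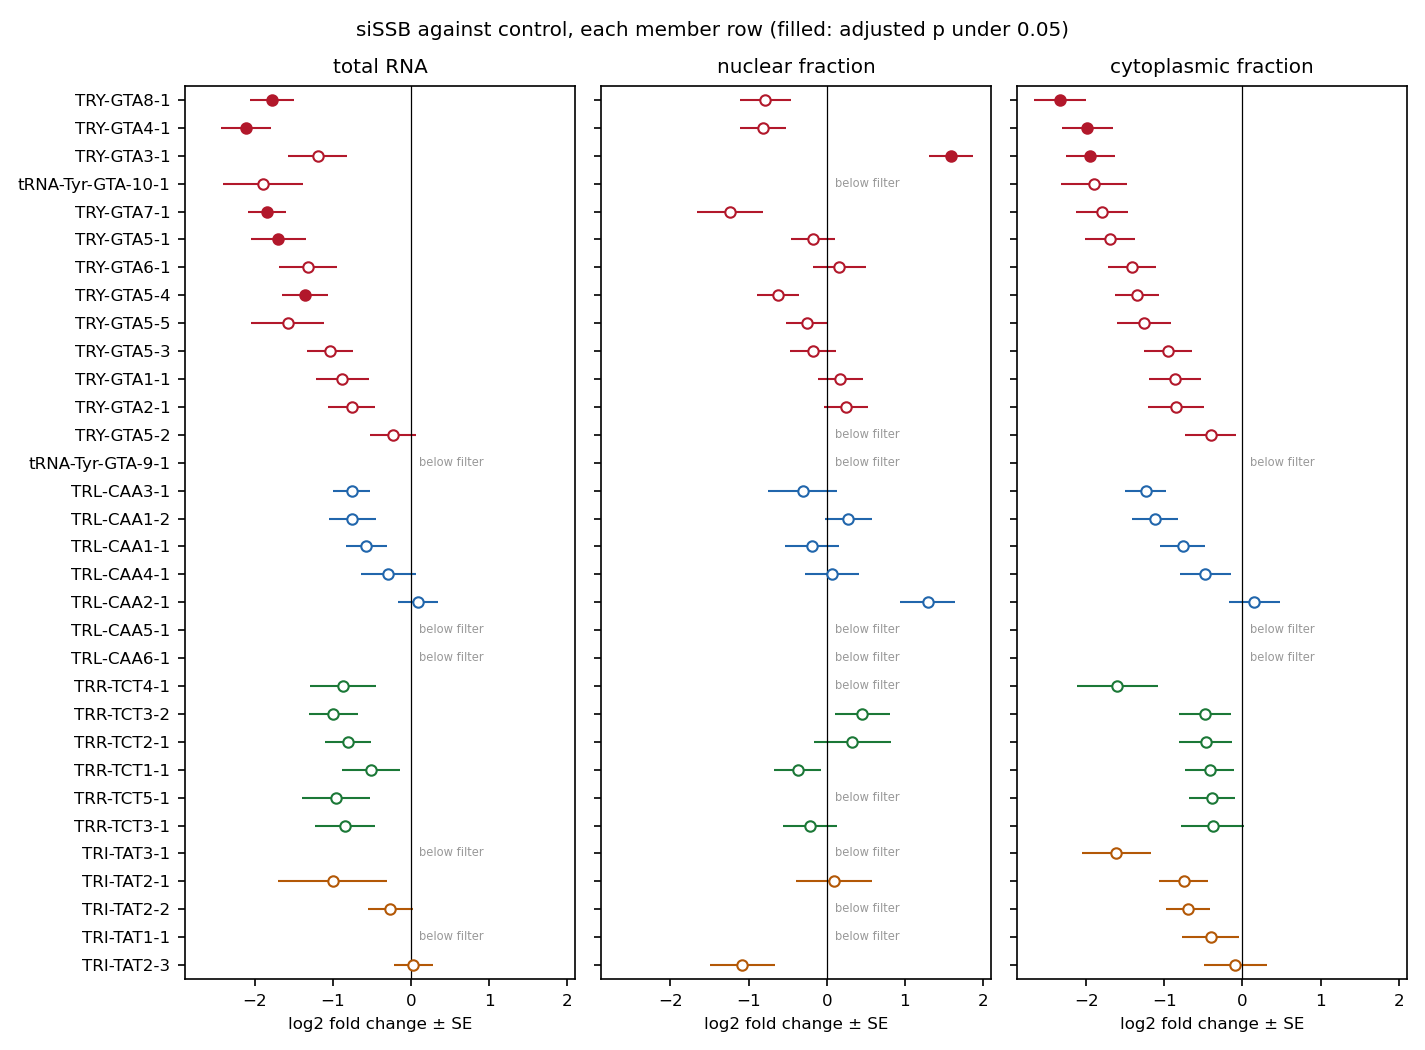
Log2 fold change, siSSB to control, with its SE (x axis) of each member (rows, coloured by family as Tyr-GTA red, Leu-CAA blue, Arg-TCT green and Ile-TAT orange) in total RNA, nuclei and cytoplasm, with filled points where the adjusted p was under 0.05. All Tyr-GTA and all Arg-TCT points are negative in total RNA and cytoplasm, as are most points of the other families. TRY-GTA3-1 alone is filled in the nuclear panel, at 1.59.

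The interaction of siRNA and fraction asked whether the siSSB effect differed between nuclei and cytoplasm. TRY-GTA3-1 was the single member changed of 31 tested, with an effect larger in nuclei by 3.396 ± 0.48 on the log2 scale (adjusted p = 2.73e-04, edgeR on the 12 fraction libraries), where 0.0133% of all 37493 rows tested were changed, 0.008% with a larger and 0.00533% with a smaller value in nuclei. None of the 430 other tRNA rows tested was called by edgeR or by DESeq2, and 43 of them had an unadjusted p under 0.05. So had 5 of 14 Tyr-GTA, 2 of 6 Leu-CAA, 0 of 6 Arg-TCT and 1 of 5 Ile-TAT members. The estimate was positive in 26 of the 31 members and negative in 5. Under the 6 scalings its median ran from 0.68 to 1.27 over the members and from 0.0850 to 0.65 over the other tRNA rows. The value for TRY-GTA3-1 ranged from 3.26 to 3.93 over 22 alternatives, with an adjusted p of at most 0.0143. The interaction was 1.38 ± 0.52 for TRY-GTA8-1, 1.44 ± 0.51 for TRY-GTA6-1 and 0.88 ± 0.47 for TRY-GTA1-1 (adjusted p = 0.958 for each). Larger estimates of 4.66 ± 1.22 for TRI-TAT3-1 and 3.62 ± 2.94 for tRNA-Tyr-GTA-9-1 did not pass and rested on 0, 0 and 1 and on 0, 0 and 0 counts in control nuc libraries.

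TRY-GTA3-1 also stood apart in its share of its own family, which does not depend on the scaling of libraries. Of the length-scaled Tyr-GTA counts it held 3.74% to 5.00% in control nuc and 9.96% to 14.9% in siSSB nuc, but 1.81% to 2.47% in control cyto and 0.951% to 1.56% in siSSB cyto. In total RNA the ranges overlapped, at 1.81% to 2.04% in control and 1.51% to 2.31% in siSSB. TRY-GTA6-1 held 2.04% to 3.68% in control nuc and 2.79% to 4.21% in siSSB nuc, which overlap. TRY-GTA4-1 held less of the family in siSSB in each RNA source, with 10.9% to 11.9% against 5.93% to 6.33% in total, 10.4% to 13.1% against 6.43% to 7.26% in cyto and 5.98% to 10.7% against 4.21% to 5.07% in nuc libraries.

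**Figure D4:**
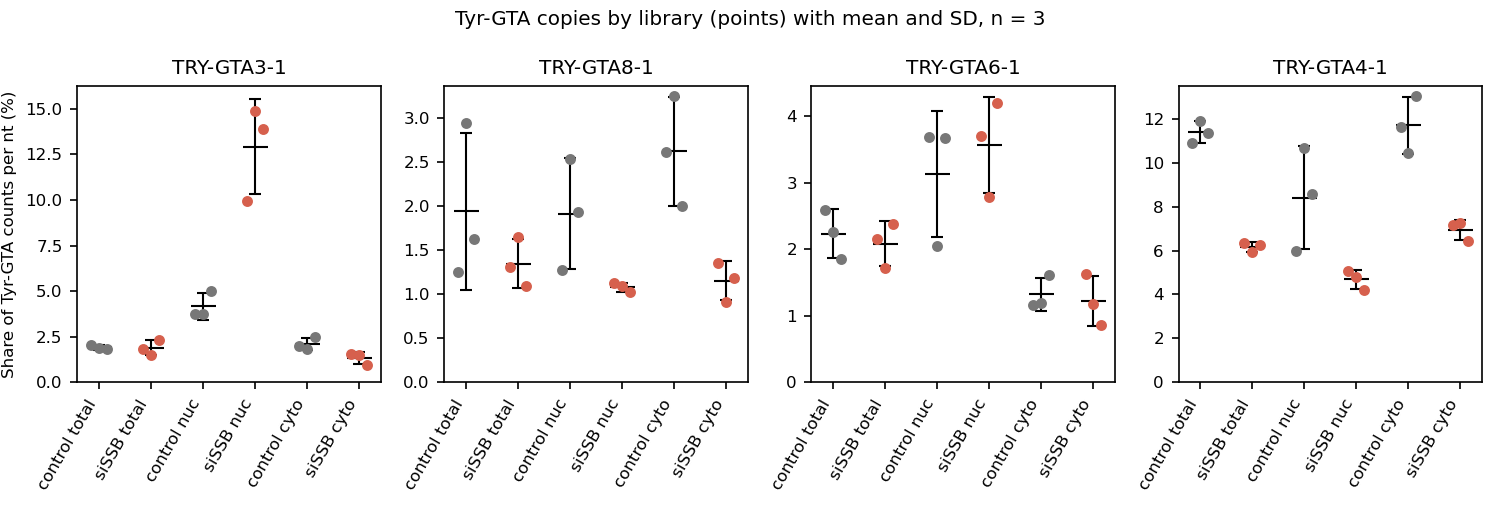
Share of the length-scaled Tyr-GTA counts (%, y axis; the scale differs between panels) held by 4 Tyr-GTA copies in each library (points, grey for control and red for siSSB), with the mean and SD of the 3 replicates in black. TRY-GTA3-1 reaches 9.96% to 14.9% in siSSB nuc and at most 5.00% in any control library, while TRY-GTA4-1 is lower in siSSB in each RNA source.

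Most members had lower values in nuclei than in cytoplasm under TMM scaling. In control cells 27 of 31 members tested were lower in nuc and 0 higher, where 23.3% of all 26774 rows tested were changed, 14.1% lower and 9.21% higher. In siSSB cells 22 of 27 were lower and 2 higher, where 25.3% of 26274 rows were changed, 14.5% lower and 10.9% higher. The 426 and 414 other tRNA rows gave 326 and 274 lower and 11 and 22 higher. These values depend on the scaling, because the fractions differed so much in composition that TMM factors were 0.228 to 0.349 in nuc and 3.51 to 4.83 in cyto libraries. The median over all rows ran from −6.10 to 1.62 in control and from −5.98 to 1.69 in siSSB cells under the 6 scalings, and relative to the other tRNA rows 15 members were called in control cells, 13 lower and 2 higher, and 12 in siSSB cells, 8 lower and 4 higher.

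TRL-CAA4-1 had the largest decrease among members with a mean of at least 20 counts. Its log2 fold change of nuc to cyto was −4.95 ± 0.39 in control (adjusted p = 6.66e-12) and −4.58 ± 0.37 in siSSB cells (adjusted p = 1.31e-10), and −3.04 and −2.72 relative to the other tRNA rows. The Leu-CAA total stood at place 2 of 47 anticodon families in control cells and at place 3 of 46 in siSSB cells, ordered from the lowest ratio, with log2 ratios of −4.37 and −3.82. In the same family, TRL-CAA2-1 had −4.07 ± 0.37 and −3.09 ± 0.38. The second largest decrease in control cells was that of tRNA-Tyr-GTA-10-1, with −4.51 ± 0.71, resting on 1, 1 and 0 counts in nuc. In Arg-TCT, TRR-TCT1-1 had −3.74 ± 0.34 in control and −3.86 ± 0.37 in siSSB cells, and TRR-TCT3-2 had −3.57 ± 0.37 in control cells. In Tyr-GTA, TRY-GTA7-1 had −3.83 ± 0.38 and −3.46 ± 0.42, and in Ile-TAT, TRI-TAT2-3 had −3.80 ± 0.45 and TRI-TAT2-2 −3.14 ± 0.48 in siSSB cells, each with an adjusted p of at most 1.02e-05.

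TRY-GTA3-1 had a log2 fold change of nuc to cyto of −1.45 ± 0.34 in control cells (adjusted p = 0.00121) and of 1.93 ± 0.32 in siSSB cells (adjusted p = 3.60e-05). Its CPM in these fits were 1.82 ± 0.438 in nuc and 4.96 ± 1.75 in cyto of control cells, and 6.26 ± 0.593 and 1.65 ± 0.162 in siSSB cells. Either sign depended on the scaling: the value was 0.52 relative to the other tRNA rows in control cells, and −1.90 by library size and −3.95 by snoRNAs in siSSB cells. The other member higher in nuc of siSSB cells was TRI-TAT2-1, with 20, 18 and 3 counts in nuc and 16, 11 and 20 in cyto (1.57 ± 0.47, adjusted p = 0.0132), which has a mean under 20 counts, was named after its values were seen and also changed sign between scalings (−4.28 to 3.51).

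**Figure D5:**
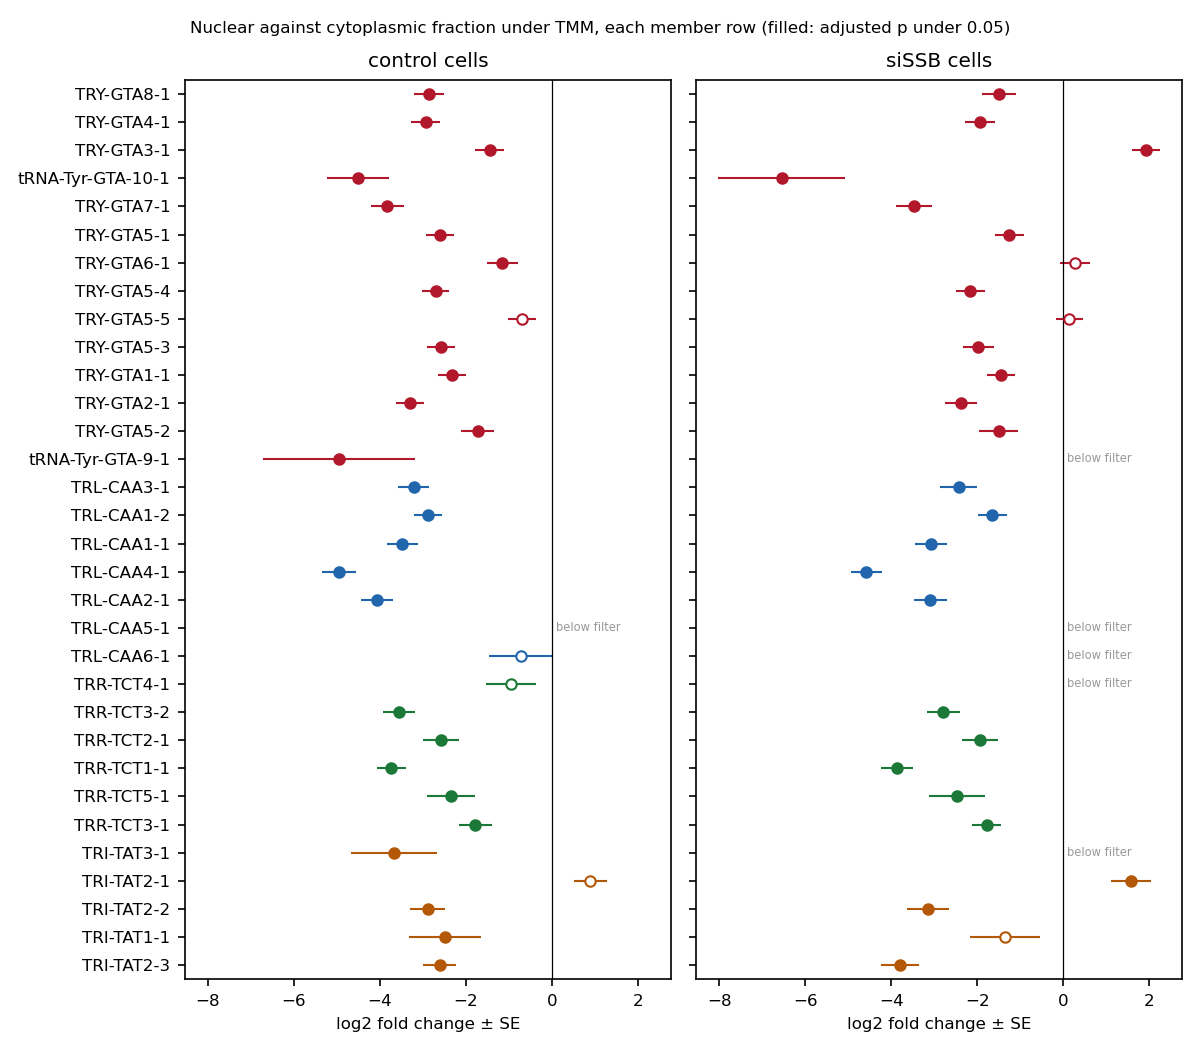
Log2 fold change, nuc to cyto, with its SE under TMM scaling (x axis) of each member (rows, coloured by family as Tyr-GTA red, Leu-CAA blue, Arg-TCT green and Ile-TAT orange) in control and siSSB cells, with filled points where the adjusted p was under 0.05. TRL-CAA4-1 lies at −4.95 and −4.58, and TRY-GTA3-1 at −1.45 in control and 1.93 in siSSB cells, with signs that depend on the scaling.

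Members without an intron held few counts. TRL-CAA5-1 held at most 2 counts in any library and TRL-CAA6-1 at most 13. TRR-TCT4-1 had 20, 13 and 14 counts in total RNA of control and 7, 7 and 14 of siSSB cells, which gave −0.87 ± 0.42 on the log2 scale (adjusted p = 0.332), against −1.60 ± 0.51 in cyto (adjusted p = 0.405). tRNA-Tyr-GTA-10-1 held 42, 29 and 58 against 7, 4 and 26 counts in total (−1.89 ± 0.51, adjusted p = 0.0910) and 55, 28 and 121 against 11, 16 and 26 in cyto (−1.90 ± 0.42, adjusted p = 0.125). Without an intron, 0 of 2 members tested in total RNA and 0 of 2 in cyto were called by edgeR, against 5 of 25 and 3 of 27 with an intron. Of all rows tested 1.34% and 0.291% were called, and of the other tRNA rows 9.29% and 3.87%. The median log2 fold change was −1.38 without and −0.88 with an intron in total RNA, and −1.75 and −0.86 in cyto. No member without an intron reached the filter in nuclei. Between the fractions of control cells TRR-TCT4-1 had −0.95 ± 0.58 and TRL-CAA6-1 −0.73 ± 0.74, neither passing, and tRNA-Tyr-GTA-10-1 was lower in nuc with 1, 1 and 0 counts, and at 0, 0 and 0 counts in nuc of siSSB cells. The call of tRNA-Tyr-GTA-10-1 depended on the processing, since it passed in 4 of 16 alternatives in total RNA (adjusted p down to 1.42e-05) and in 4 of 16 in cyto (down to 4.40e-05), lower in siSSB each time. Members with and without an intron were not compared by a test.

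Other small Pol III RNAs, from a list of RPPH1, RMRP, RN7SK, RNY1, RNY3, RNY4, RNY5, VTRNA1-1, VTRNA1-2, VTRNA1-3 and BCYRN1, gave 3 called RNAs of 10 tested in total RNA, 2 of 10 in nuclei and 2 of 10 in cytoplasm, all lower and all vault RNAs, the RNA components of the vault particle. Of all rows tested 1.34%, 0.378% and 0.291% were called. The calls of this list were read from the TMM fit alone, not from the alternatives. In nuclei 0 of all rows tested were called by library size, by snoRNAs or relative to the other tRNA rows, so the nuclear calls were lost there. For VTRNA1-1 the log2 fold change was −2.25 ± 0.34 in total RNA (adjusted p = 0.0128), −1.80 ± 0.27 in nuclei (0.00473) and −1.83 ± 0.28 in cytoplasm (0.0342). For VTRNA1-2 these values were −2.58 ± 0.38 (0.0123), −1.91 ± 0.31 (0.00585) and −2.28 ± 0.29 (0.0273). VTRNA1-3 passed in total RNA alone, with −1.67 ± 0.37 (adjusted p = 0.0491). Both VTRNA1-1 and VTRNA1-2 were thus lower in nuclei, the fraction in which TRY-GTA3-1 was higher, and their interactions were −0.12 ± 0.43 and 0.20 ± 0.42. Of the other RNAs of the list, none passed. In total RNA the RNase P RNA RPPH1 had −0.0802 ± 0.24, the RNase MRP RNA RMRP 0.12 ± 0.28 and RN7SK, a regulator of transcription elongation, −0.0218 ± 0.28. All 4 Y RNAs tested, RNAs that bind the Ro protein, had negative values in total RNA, with −0.90 ± 0.39 for RNY3 (adjusted p = 0.272), −0.44 for RNY5, −0.34 for RNY1 and −0.29 for RNY4. In nuclei they had −1.08 ± 0.30 for RNY3 (adjusted p = 0.170), −0.99 ± 0.33 for RNY5 (adjusted p = 0.234), −0.67 for RNY4 and −0.56 for RNY1, and in cytoplasm 0.0430, 0.0183, −0.0321 and −0.12 in the same order.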

How the data were processed

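Per the deposited table, values are raw counts, whole numbers of reads for each noncoding RNA row, with no normalization by the authors. Their processing notes name Bowtie2, bedtools and hg38 without versions or roles. How reads with several genomic positions were treated and whether strand was used is not given in the sources used here, so reads shared by near-identical copies make single copies uncertain. Groups and replicate numbers came from the sample titles.

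Counts were tested with edgeR 4.0.16 (limma 3.58.1, R 4.3.3) by the quasi-likelihood F-test with TMM factors and filterByExpr on the whole table, each comparison on its own libraries, with Benjamini-Hochberg adjustment across all rows tested. The fit was run on simulated counts for siSSB against control in total RNA and for nuc against cyto in control cells. These counts had the same composition in both groups apart from the rows made to change, so the scaling between fractions was not tested. Family totals and shares are descriptions with no test. With 3 against 3 libraries an exact two-sided permutation p cannot go below 0.1, so none is given. The design text calls the replicates biological. Molecular identifiers are not mentioned, so counts are of reads rather than molecules. Alternatives were other scalings, DESeq2 1.42.0, other filters, a replicate block and leaving out each library.

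The start of an intron was set from the position of the anticodon. Exon 2 was taken as the last 36 nt of the gene, except in Leu-CAA, where pairing of the anticodon stem placed its start. The intron of tRNA-Tyr-GTA-9-1 rests on a stem with 3 of 5 pairs. Named members were the copy with the most counts in each family, up to 6 called members per direction with a mean of at least 20 counts, members without an intron, TRY-GTA3-1 and called Pol III RNAs. TRY-GTA1-1 and TRY-GTA6-1 were added for their sequence, and TRY-GTA4-1 and TRY-GTA8-1 in nuclei, TRY-GTA5-5, TRI-TAT2-1, TRI-TAT3-1 and tRNA-Tyr-GTA-9-1 after their values were seen. The members and lists were chosen with earlier results of these data known.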

Additional observations from a re-analysis of the deposited data

Results flagged for a closer look

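The siSSB effect on TRY-GTA3-1 differed between the fractions by a test of the difference itself, with an interaction of 3.396 on the log2 scale (edgeR, adjusted p = 2.73e-04). It was lower in siSSB in all 3 cytoplasmic libraries and higher in all 3 nuclear libraries than in any control library of the same fraction. Groups held 3 libraries each, so no library was tested as an outlier.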

How the results depend on the processing

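The number of called members depended on the scaling. In total RNA it was 5, and 3 by library size, 19 by miRNAs, 1 by snoRNAs, 10 with DESeq2, 9 with no filter beyond 1 count, 3 with identical rows taken once, and 3 to 11 without 1 library (11 without siSSB total replicate 3, 7 without control total replicate 3). The share of the other tRNA rows called there was 9.29%, and 77.3% by miRNAs, 23.0% with DESeq2 and 29.3% with no filter. It was 22.1% without siSSB total replicate 3 and 18.8% without control total replicate 3. Of all 13883 rows tested, 2141 were called by miRNAs and 566 with DESeq2. In nuclei the number of called members was 1, and 0 by library size, snoRNAs, the other tRNA rows or a fit of all 18 libraries, and 0 to 1 without 1 library. In cytoplasm it was 3, and 0 by library size, snoRNAs or the other tRNA rows, 6 by miRNAs, 9 with DESeq2, 7 with no filter, 7 in the fit of all 18 libraries and 0 to 2 without 1 library. Of the other tRNA rows 3.87% were called there, and 7.51% by miRNAs, 10.9% with DESeq2, 10% with no filter and 8.84% in the fit of all 18 libraries. Of all 18921 rows tested, 125 were called by miRNAs and 163 with DESeq2. Nuc against cyto gave 27 and 24 called members, and 15 and 12 relative to the other tRNA rows, or 24 to 27 and 22 to 24 without 1 library. Over all alternatives the numbers ran from 15 to 31 in control and from 12 to 27 in siSSB cells. By library size or by snoRNAs, all 31 members and all 426 other tRNA rows tested were called lower in control cells. The interaction gave 1 called member throughout.

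With the replicate number as a block the numbers called were 6 in total, 1 in nuclei, 0 in cytoplasm, 26 and 24 between fractions and 1 for the interaction. Same-numbered libraries did not deviate together (r from −0.42 to 0.13 in the knockdown comparisons), so the numbers were not taken as pairs.

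Values that changed sign were small or depended on the scaling, and the cause was not tested. In total RNA TRI-TAT2-3 was −0.49 by miRNAs and −0.0482 to 0.25 without 1 library. TRL-CAA4-1 was 0.16 by library size, 0.28 by snoRNAs, 0.39 by the other tRNA rows, 0.0168 with rows of at most 500 nt and −0.53 to 0.0647 without 1 library. TRR-TCT1-1 was 0.0879 by snoRNAs and 0.19 by the other tRNA rows. In nuclei TRL-CAA4-1 was −0.0397 with DESeq2, −0.0819 with no filter, −0.0933 in the fit of all 18 libraries, and −0.19 to 0.50 without 1 library. Without 1 library, TRY-GTA1-1 ranged from −0.0847 to 0.35 and TRY-GTA6-1 from −0.13 to 0.40. In cytoplasm TRI-TAT2-3 was 0.10 by library size, 0.27 by snoRNAs, 0.45 by the other tRNA rows, 0.0767 with rows of at most 500 nt, and −0.58 to 0.23 without 1 library. TRL-CAA4-1 was 0.12 by the other tRNA rows, and TRR-TCT1-1 was 0.0295 by snoRNAs and 0.17 by the other tRNA rows. Between fractions of control cells TRL-CAA6-1 was 1.16, TRR-TCT4-1 0.94 and TRY-GTA3-1 0.52 by the other tRNA rows, and in siSSB cells TRY-GTA3-1 was −1.90 by library size and −3.95 by snoRNAs.

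Depth limits the nuclear values most, where all members together held 1911 to 3408 counts per library. Precursor and spliced tRNAs cannot be told apart in a row count.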
